A study of Homo sapiens with 12 samples.

Results

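The p53 target genes examined here are a list of 30 genes that the transcription factor p53 is known to activate. They were taken by gene symbol, with no threshold on a measured value. Of the 30, 29 had a row in the expression table, expression of GDF15 was not analysed here, and all 29 passed the filter on low values among the 12276 genes tested. Transcripts were measured by polyA RNA-seq in 12 libraries from 3 established human kidney epithelial lines. A704 and CAKI-1 are labelled as cancer lines. HK2 is labelled as normal and is a proximal tubule line immortalised with the E6 and E7 genes of a papillomavirus. Each line received a PTPN14 siRNA called PTPN14-1, a second PTPN14 siRNA called PTPN14-2, a LATS siRNA or a non-target control siRNA. The dose was 25 nM, and cells were harvested 48 h after lipid transfection. Each siRNA gave 1 library per line, and the control libraries share the transfection with the others. PTPN14 is a tyrosine phosphatase of the Hippo pathway and LATS1 and LATS2 are its kinases. The labels number the PTPN14 siRNAs in opposite ways in titles and descriptions, and the numbers of the titles are used. They do not say which LATS gene the LATS siRNA was aimed at.

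As background, p53 is held low by MDM2 and MDM4 and is released by DNA damage, oncogene activity and other stress. It then binds DNA as a tetramer at sites made of 2 adjacent half-sites and raises genes that halt the cell cycle, repair DNA, alter metabolism or kill the cell. Among its targets is MDM2 itself, which closes a feedback loop. The E6 protein carried by HK2 is known for sending p53 to degradation, and E7 is known for binding RB1 and for targeting PTPN14 protein. In mouse cells Ptpn14 is itself a known p53 target. Protein was not measured.

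The members fall into 5 groups by role. The feedback group holds MDM2, MDM4, PPM1D and CCNG1. The cell cycle group holds CDKN1A, GADD45A, BTG2, PLK2 and PLK3. The cell death group holds BBC3, BAX, PMAIP1, FAS, TNFRSF10B, PERP, AEN, PHLDA3, ZMAT3 and TRIAP1. The DNA repair group holds XPC, DDB2, RRM2B and POLH. The metabolism and autophagy group holds SESN1, SESN2, FDXR, TP53I3, TP53INP1 and SPATA18.

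Promoters of the members were searched for the p53 site, since the site is the sequence by which the genes are known to be reached. RefSeq promoters (GRCh38.p14, 250 bases before to 50 after the start) were found for 25 of the 30 members, GDF15 among them, as 36 windows. A half-site of 10 bases matching the p53 consensus exactly, on either strand, stood in 6 of the 25 genes (24%), against 8.06% of 27305 genes in the table. A full site of 20 bases was 2 half-sites with no base between them. The fixed C and G of each half-site had to match, with at most 2 mismatches elsewhere. Such a site stood in 4 of the 25 genes (16%), against 0.359% of all genes. Full and half-sites may overlap, and a match is a description of letters and not of binding. The 4 full sites lie in windows of MDM2, FAS, AEN and DDB2, and the MDM2 site belongs to the internal promoter rather than the upstream one. The sequences below are shown because they carry these sites, with the matched site in capitals and 15 bases on either side, each read 5′ to 3′ on the gene's strand.
MDM2: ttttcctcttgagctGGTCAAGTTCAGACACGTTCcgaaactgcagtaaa
FAS: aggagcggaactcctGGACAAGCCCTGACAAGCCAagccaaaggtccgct
AEN: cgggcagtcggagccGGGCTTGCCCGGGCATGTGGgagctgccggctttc
DDB2: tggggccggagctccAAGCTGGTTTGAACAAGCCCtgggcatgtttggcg
The MDM2 sequence lies at chr12:68808908-68808957, the FAS sequence at chr10:88991294-88991343, the AEN sequence at chr15:88621291-88621340 and the DDB2 sequence at chr11:47214954-47215003, all on the plus strand. The DDB2 site had 1 mismatch and the other 3 sites had 2 each. The DDB2 window also held 2 exact half-sites, beginning at offsets 5 and 16 from the start. The first is the right-hand part of the marked site, and the second lies in the lower-case bases after it. They were not joined into a full site because the search allowed no gap.

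PLK2, SESN1 and FDXR had an exact half-site without a full site in the searched window. They are shown because PLK2 and FDXR figure in the results that follow and SESN1 has the half-site at an internal promoter.
PLK2: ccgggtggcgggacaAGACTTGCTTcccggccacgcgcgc
SESN1: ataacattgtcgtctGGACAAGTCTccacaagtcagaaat
FDXR: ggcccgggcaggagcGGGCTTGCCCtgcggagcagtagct
The PLK2 sequence lies at chr5:58460194-58460233, the SESN1 sequence at chr6:109009013-109009052 and the FDXR sequence at chr17:74872981-74873020, all on the minus strand. CDKN1A, BBC3, BAX and the remaining members with a window had no match in it, which says nothing of sites elsewhere in those genes.

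The libraries were alike in size. Depth, estimated from the steps between low values, lay between 16.95 and 23.35 M reads. The number of genes above an FPKM of 1 was 10862 to 11082, where FPKM is the number of fragments scaled to transcript length and library size. The RNA integrity number was 10 except in the A704 control, at 9.6. PTPN14 mRNA was reduced to 21.4, 25.2 and 28.7% of control by PTPN14-1 and at 37.3, 31.2 and 37.5% with PTPN14-2 (in the order A704, CAKI-1, HK2). LATS1 stood at 30.7, 22.5 and 27.9% of control with the LATS siRNA, and LATS2 at 110, 122 and 98.2% (log2 change 0.12 ± 0.09, limma adjusted p = 0.618). With PTPN14-1, LATS2 was higher, at 126, 151 and 154% of control (0.47 ± 0.09, limma adjusted p = 0.00903). It stood at 105, 110 and 101% with PTPN14-2 (0.07 ± 0.09, limma adjusted p = 0.771). Kidney epithelial markers summed to 893 to 965 FPKM in A704, 363 to 462 in CAKI-1 and 414 to 445 in HK2. PAX8, a kidney lineage factor, was measured in every library, at 19.4 FPKM or more. PAX2, LHX1 and CUBN, from the same list of 12 markers, were at or under 1 FPKM in every library of 1 or more lines. EPCAM was at or under 0.51 FPKM in A704 and CAKI-1, and CDH1 was at or under 0.17 FPKM in CAKI-1 and HK2. Of 7 fibroblast markers, DCN and LUM were present in HK2 and the list summed to 54.6 to 83.5 FPKM there, against at most 2.57 in the other lines, while COL1A2 and COL3A1 were at or under 0.05 FPKM in all libraries. Sums of 5 endothelial and of 5 immune markers were at most 0.47 and 0.50 FPKM. The part of these differences in the results was not tested. In bulk libraries fewer cells of a kind and less RNA per cell cannot be told apart.

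**Figure D1:**
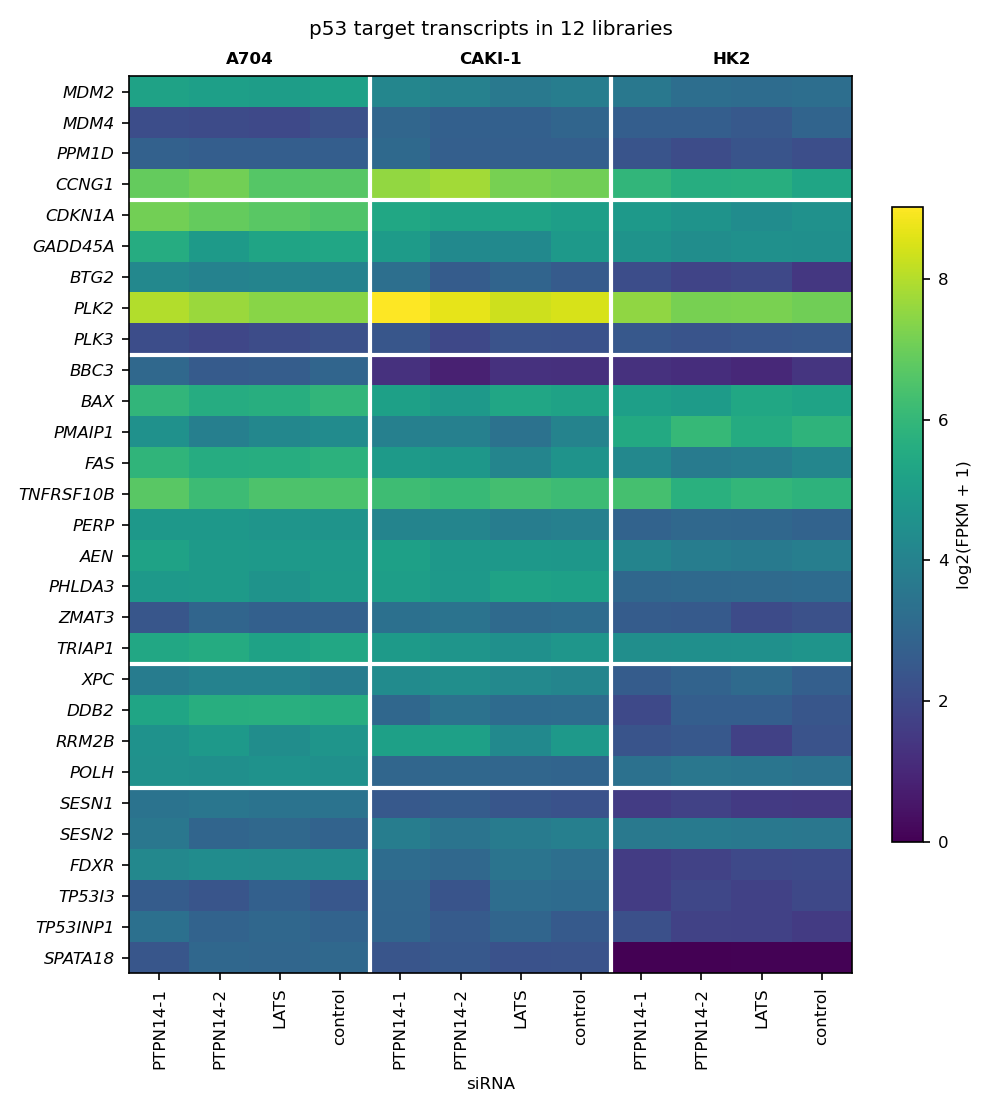
Level of each of the 29 p53 target genes (rows, grouped by role as feedback, cell cycle, cell death, DNA repair, and metabolism and autophagy) in each of the 12 libraries (columns, grouped by line), as log2(FPKM + 1). The 3 blocks of columns differ more than the columns within a block; PLK2 reaches 517 FPKM in CAKI-1 and SPATA18 is at or under 0.05 FPKM in HK2.

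The largest differences among these genes were between lines. Most p53 target genes were higher in A704 and CAKI-1 than in HK2. Every value below is an FPKM, and every change or difference is on the log2(FPKM + 1) scale with its standard error, from limma with Benjamini-Hochberg adjustment over all 12276 genes at 0.05. In A704 against HK2, 25 of the 29 members were higher and 4 lower, against 40.6% higher and 44% lower over all genes. In CAKI-1 against HK2, 21 were higher, 3 lower and 5 did not pass, against 40.4% higher and 41.3% lower over all genes. SPATA18 passed the filter only through A704 and CAKI-1, so its direction was set by the filter; without it the counts were 24 of 28 (85.7%) and 20 of 28 (71.4%) higher. The median difference over those 28 was 1.10 for A704 and 0.67 for CAKI-1, against -0.04 and -0.01 over all genes. HK2 had the lowest mean of the lines for 22 of 29 members (75.9%), against 34.4% of all genes. All 4 HK2 libraries lay below all 8 others for 16 members, SPATA18 among them (55.2%, against 22.1% of all genes), and above all 8 for PMAIP1 alone, where 24.1% of all genes did so. The libraries of 1 line are not independent draws of a kind of line, and the p-values speak only of the spread among these 12. Cancer origin, immortalisation, medium and donor cannot be told apart with 1 normal line.

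**Figure D2:**
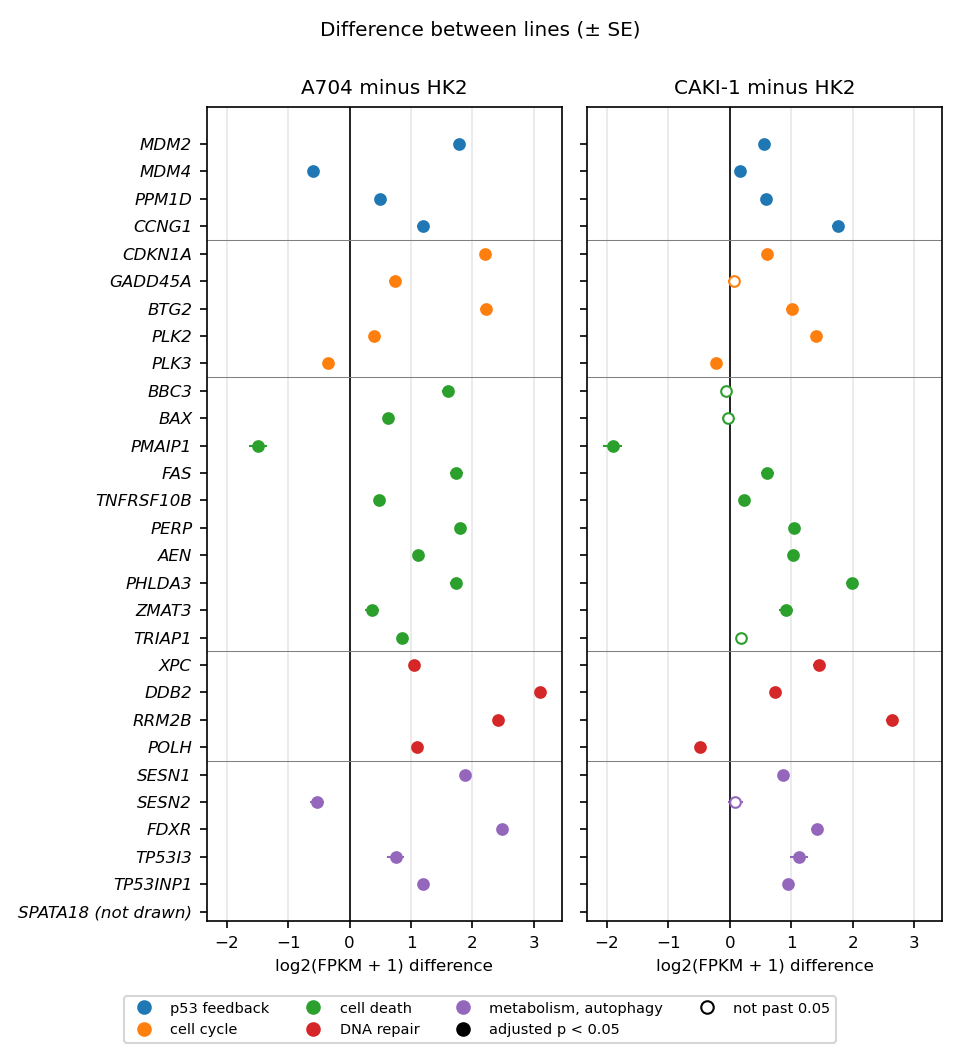
Difference between lines for each member, as log2(FPKM + 1) in A704 minus HK2 (left) and in CAKI-1 minus HK2 (right), with bars for the standard error, filled where the limma adjusted p is under 0.05 and open otherwise. SPATA18 is not drawn because it passed the filter only through A704 and CAKI-1. Most points lie right of 0, with PMAIP1 and PLK3 left of it in both panels.

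In the feedback group, MDM2, the ubiquitin ligase that degrades p53, had 35.7, 33.1, 31.7 and 34.2 FPKM in A704 with PTPN14-1, PTPN14-2, LATS and control siRNA, and 16.4, 14.5, 11.4 and 13.3 FPKM in CAKI-1 in the same order, against 11.1, 8.65, 8.06 and 8.63 FPKM in HK2. The lines did not overlap, and the differences were 1.78 ± 0.07 for A704 minus HK2 and 0.56 ± 0.07 for CAKI-1 minus HK2 (adjusted p = 3.65e-11 and 6.54e-06). CCNG1, a cyclin that recruits phosphatase to MDM2, averaged 113 ± 17.9 FPKM in A704 and 170 ± 39.2 in CAKI-1, against 48.98 ± 8.86 in HK2 (SD, n = 4 each). It was highest in CAKI-1, the reverse order of MDM2 between the cancer lines. PPM1D, the phosphatase that ends the damage signal, averaged 5.63 ± 0.21 FPKM in A704 and 6.08 ± 0.86 in CAKI-1, against 3.70 ± 0.38 in HK2. MDM4, the MDM2 partner that masks the activation domain of p53, went the other way in A704. It averaged 3.31 ± 0.30 FPKM there and 6.32 ± 0.58 in CAKI-1, against 5.53 ± 0.69 in HK2, and was lower in A704 by a difference of -0.59 ± 0.07 (adjusted p = 1.56e-06).

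In the cell cycle group, CDKN1A encodes p21, the CDK inhibitor through which p53 halts the cycle. It had 135, 118, 105 and 92.3 FPKM in A704 and 40.3, 35.3, 36.7 and 31.9 FPKM in CAKI-1, against 28.6, 23.5, 19.9 and 22.3 FPKM in HK2, with the siRNAs in the order used for MDM2. Every A704 library was above every other library, and the differences from HK2 were 2.20 ± 0.07 in A704 and 0.60 ± 0.07 in CAKI-1 (adjusted p = 8.69e-12 and 5.59e-06). BTG2, an antiproliferative regulator of mRNA decay, averaged 15.7 ± 1.18 FPKM in A704 and 6.40 ± 1.77 in CAKI-1, against 2.65 ± 0.70 in HK2, with no overlap between lines. PLK2, a kinase of centriole duplication, was the most abundant member, at 199 ± 39.2 FPKM in A704 and 402 ± 85.2 in CAKI-1, against 151 ± 22.7 in HK2. Its A704 and HK2 libraries overlapped. GADD45A, a stress sensor, averaged 37.9 ± 7.23 FPKM in A704 and 23.7 ± 6.08 in CAKI-1, against 22.1 ± 1.44 in HK2, and CAKI-1 did not pass against HK2 (0.07 ± 0.10, adjusted p = 0.544). PLK3, a stress kinase, was lower in both cancer lines, at 3.32 ± 0.42 and 3.71 ± 0.61 FPKM in A704 and CAKI-1, against 4.47 ± 0.27 in HK2.

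The cell death group held the 1 member with all 4 HK2 libraries above all 8 others. PMAIP1 encodes NOXA, a BH3-only protein that frees BAX and BAK by binding MCL1. It had 22.7, 13.7, 17.02 and 19.4 FPKM in A704 and 14.4, 14.3, 9.50 and 15.3 FPKM in CAKI-1, against 43.4, 64.4, 46.2 and 57.3 FPKM in HK2. The HK2 values lay above all others, and the differences were -1.49 ± 0.15 and -1.91 ± 0.15 (adjusted p = 1.37e-06 and 1.58e-07). BBC3 encodes PUMA, another BH3-only protein. It averaged 6.08 ± 1.11 FPKM in A704 and 1.2475 ± 0.31 in CAKI-1, against 1.33 ± 0.24 in HK2, and A704 stood apart from HK2 (1.60 ± 0.09, adjusted p = 2.13e-09). BAX, the pore-forming effector, followed the same order, with 54.6 ± 7.16 FPKM in A704 and 34.1 ± 4.84 in CAKI-1, against 34.9 ± 4.26 in HK2. CAKI-1 did not pass against HK2 for BBC3 (-0.06 ± 0.09, adjusted p = 0.587) or for BAX (-0.04 ± 0.09, adjusted p = 0.693).

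The death receptors FAS and TNFRSF10B were both highest in A704. FAS averaged 52.1 ± 5.67 FPKM in A704 and 23.8 ± 5.61 in CAKI-1, against 15.01 ± 2.39 in HK2, where CAKI-1 and HK2 libraries overlapped. TNFRSF10B, a TRAIL receptor, differed less, at 87.8 ± 12.8 FPKM in A704 and 72.97 ± 5.82 in CAKI-1, against 62.8 ± 13.1 in HK2, and its lines overlapped. PHLDA3, an inhibitor of AKT, had 27.5, 28.9, 23.6 and 29.3 FPKM in A704 and 32.4, 28.6, 36.0 and 34.1 FPKM in CAKI-1, against 7.05, 7.45, 7.65 and 7.99 FPKM in HK2. That is a 3.63-fold and a 4.35-fold ratio of means. PERP, a desmosome-associated membrane protein, was 3.85-fold higher in A704 and 2.22-fold higher in CAKI-1 than in HK2. AEN, a nuclease of apoptosis, averaged 30.4 ± 3.46 and 28.6 ± 3.44 FPKM in A704 and CAKI-1, against 13.5 ± 1.64 in HK2. ZMAT3, an RNA-binding regulator of splicing, was highest in CAKI-1, at 8.71 ± 0.97 FPKM, and stood at 5.67 ± 1.01 in A704, against 4.22 ± 0.93 in HK2. TRIAP1, a mitochondrial lipid-transfer protein that restrains apoptosis, averaged 41.0 ± 4.39 FPKM in A704 and 25.5 ± 2.85 in CAKI-1, against 22.2 ± 1.67 in HK2, and CAKI-1 did not pass (0.19 ± 0.08, adjusted p = 0.0515).

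The DNA repair group had the largest median difference between A704 and HK2, at 1.76, against 0.74 to 1.54 in the other groups, SPATA18 included. DDB2, which finds ultraviolet lesions for nucleotide excision repair, had 38.2, 48.98, 50.6 and 47.97 FPKM in A704 and 7.12, 9.48, 7.96 and 8.10 FPKM in CAKI-1, against 3.02, 5.52, 5.52 and 4.27 FPKM in HK2. Its mean was 10.1-fold higher in A704 than in HK2, while CAKI-1 was 1.78-fold higher. RRM2B, the ribonucleotide reductase subunit used outside S phase, was high in both cancer lines. It had 23.3, 28.0, 20.2 and 24.9 FPKM in A704 and 34.2, 33.8, 18.3 and 28.3 FPKM in CAKI-1, against 4.12, 4.55, 2.36 and 3.91 FPKM in HK2, ratios of 6.46 and 7.68. XPC, the damage sensor that acts with DDB2, averaged 13.9 ± 1.27 FPKM in A704 and 18.7 ± 2.14 in CAKI-1, against 6.26 ± 1.09 in HK2. POLH, the polymerase that copies past ultraviolet lesions, split the cancer lines. It averaged 22.4 ± 0.73 FPKM in A704 and 6.85 ± 0.20 in CAKI-1, against 10.0025 ± 0.72 in HK2, so it was higher in A704 and lower in CAKI-1.

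In the metabolism and autophagy group, FDXR, the ferredoxin reductase of mitochondrial steroid and iron-sulphur chemistry, had 17.3, 20.1, 19.4 and 19.8 FPKM in A704 and 8.16, 7.33, 10.2 and 8.89 FPKM in CAKI-1, against 2.02, 2.42, 2.96 and 3.12 FPKM in HK2. The lines were fully apart, with ratios of 7.28 and 3.29 to HK2. SESN1, a sestrin that restrains mTORC1, averaged 10.1 ± 0.44 FPKM in A704 and 4.52 ± 0.57 in CAKI-1, against 2.03 ± 0.27 in HK2. SESN2, its paralogue, averaged 7.77 ± 2.15 FPKM in A704 and 12.3 ± 1.69 in CAKI-1, against 11.4 ± 0.47 in HK2, and was lower in A704 by a difference of -0.53 ± 0.12 (adjusted p = 0.00103). Sestrins are also induced by stress without p53, SESN2 through ATF4. TP53I3, a quinone oxidoreductase, averaged 4.89 ± 0.70 FPKM in A704 and 6.82 ± 1.97 in CAKI-1, against 2.5025 ± 0.38 in HK2. TP53INP1, an autophagy and cell death cofactor, averaged 7.21 ± 1.23 FPKM in A704 and 5.86 ± 1.02 in CAKI-1, against 2.60 ± 0.70 in HK2. SPATA18, a mediator of mitochondrial quality control, had 4.34 to 7.28 FPKM in A704 and 3.83 to 4.59 FPKM in CAKI-1, and was listed at 0.00 to 0.05 FPKM in HK2.

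Between the cancer lines, 9 members were higher in CAKI-1 than in A704, 17 lower and 3 did not pass, against 41.8% higher and 39.3% lower over all genes. The median difference was -0.42, against 0.03 over all genes. The widest gaps were DDB2 (-2.37 ± 0.08), BBC3 (-1.65 ± 0.09), CDKN1A (-1.60 ± 0.07) and POLH (-1.58 ± 0.06), each lower in CAKI-1. PLK2 (1.01 ± 0.07) and MDM4 (0.76 ± 0.07) were the furthest the other way.

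A few line calls with small differences changed without 1 library. In CAKI-1 against HK2, TNFRSF10B (0.23 ± 0.08, adjusted p = 0.0197) was lost without any 1 of the PTPN14-2, LATS and control libraries of either line (0.0570 to 0.0834). MDM4 (0.17 ± 0.07, adjusted p = 0.0321) was lost without a PTPN14-1 or LATS library of either line (0.0750 to 0.114), and PLK3 (-0.23 ± 0.07, adjusted p = 0.0115) without a PTPN14-2 library of either (0.0567 and 0.0568). TRIAP1, which did not pass with all libraries, passed without the A704 PTPN14-2, the HK2 LATS, the HK2 control or the CAKI-1 LATS library (0.0210 to 0.0498). In A704 against HK2, ZMAT3 (0.36 ± 0.11, adjusted p = 0.0101) was lost without a LATS library of either line (0.0562 and 0.0547). In CAKI-1 against A704, RRM2B (0.21 ± 0.09, adjusted p = 0.0421) was lost without any 1 library other than the LATS libraries of A704 and CAKI-1 (up to 0.198), and PMAIP1, PHLDA3, TP53I3 and TNFRSF10B were each lost without 1 or more libraries.

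Beyond the members, a list of 61 other known p53 targets had 54 genes tested. Of these, 6 genes were at or under FPKM 1 in every HK2 library or in every library of the line set against it. The filter fixed their direction, apart from TP53I11 in CAKI-1 against HK2, which was at or under 1 in both lines. Among the other 48, 31 were higher and 14 lower in A704 than in HK2, with a median of 0.79. Over all genes, 40.6% were higher and 44% lower in A704. In CAKI-1 against HK2, 23 of 48 were higher and 21 lower, with a median of 0.03, a split close to that over all genes. CYFIP2 had 36.4 to 39.5 FPKM in A704 and 6.37 to 9.98 FPKM in CAKI-1, against 2.14 to 2.61 FPKM in HK2. Among the lower genes, ENC1 differed from HK2 by -2.47 ± 0.08 in A704. FUCA1, named after its values were seen, differed from HK2 by -2.23 ± 0.10 in A704 and -2.51 ± 0.10 in CAKI-1. EDA2R, a p53-induced death receptor, is 1 of the 6 genes set apart above, and the filter fixed its direction. It was at 17.4 to 21.3 FPKM in A704 and 7.08 to 8.93 FPKM in CAKI-1, and was listed at 0.00 to 0.02 FPKM in HK2. Of 24 tested regulators of p53, CDKN2A, which encodes the MDM2 inhibitor ARF beside p16, had at most 0.31 FPKM in A704 and CAKI-1 and 13.9 to 18.7 FPKM in HK2. CDKN2A passed the filter through HK2 alone, so its direction was fixed too. Among the other 23 regulators, 7 were higher and 12 lower in A704, and 5 were higher and 15 lower in CAKI-1, than in HK2. The shares over all genes were 40.6% higher and 44% lower in A704, and 40.4% higher and 41.3% lower in CAKI-1.

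The siRNA effects were smaller. With PTPN14-1, 6 of the 29 members were higher than with control siRNA over the 3 lines and 0 lower (20.7%, against 2.39% higher and 3.47% lower over all genes), and 11 members had an unadjusted limma p under 0.05, as did 22.8% of all genes. The 6 were PLK2, BTG2, TP53INP1, CCNG1, CDKN1A and AEN, and the changes were 0.30 to 0.54. With PTPN14-2, 0 members passed (0.448% higher and 0.904% lower over all genes), and 9 had an unadjusted limma p under 0.05, as did 14.96% of all genes. With the LATS siRNA, 0 passed (0.0244% higher and 0.0978% lower over all genes), and 6 had an unadjusted limma p under 0.05, as did 11.25% of all genes. The 3 comparisons share their control libraries. The median change over the members was 0.08 with PTPN14-1, 0.02 with PTPN14-2 and 0.01 with LATS, each against 0.00 over all genes. The labels do not say that the libraries came from separate cultures, so the p-values measure the spread between libraries over lines.

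**Figure D3:**
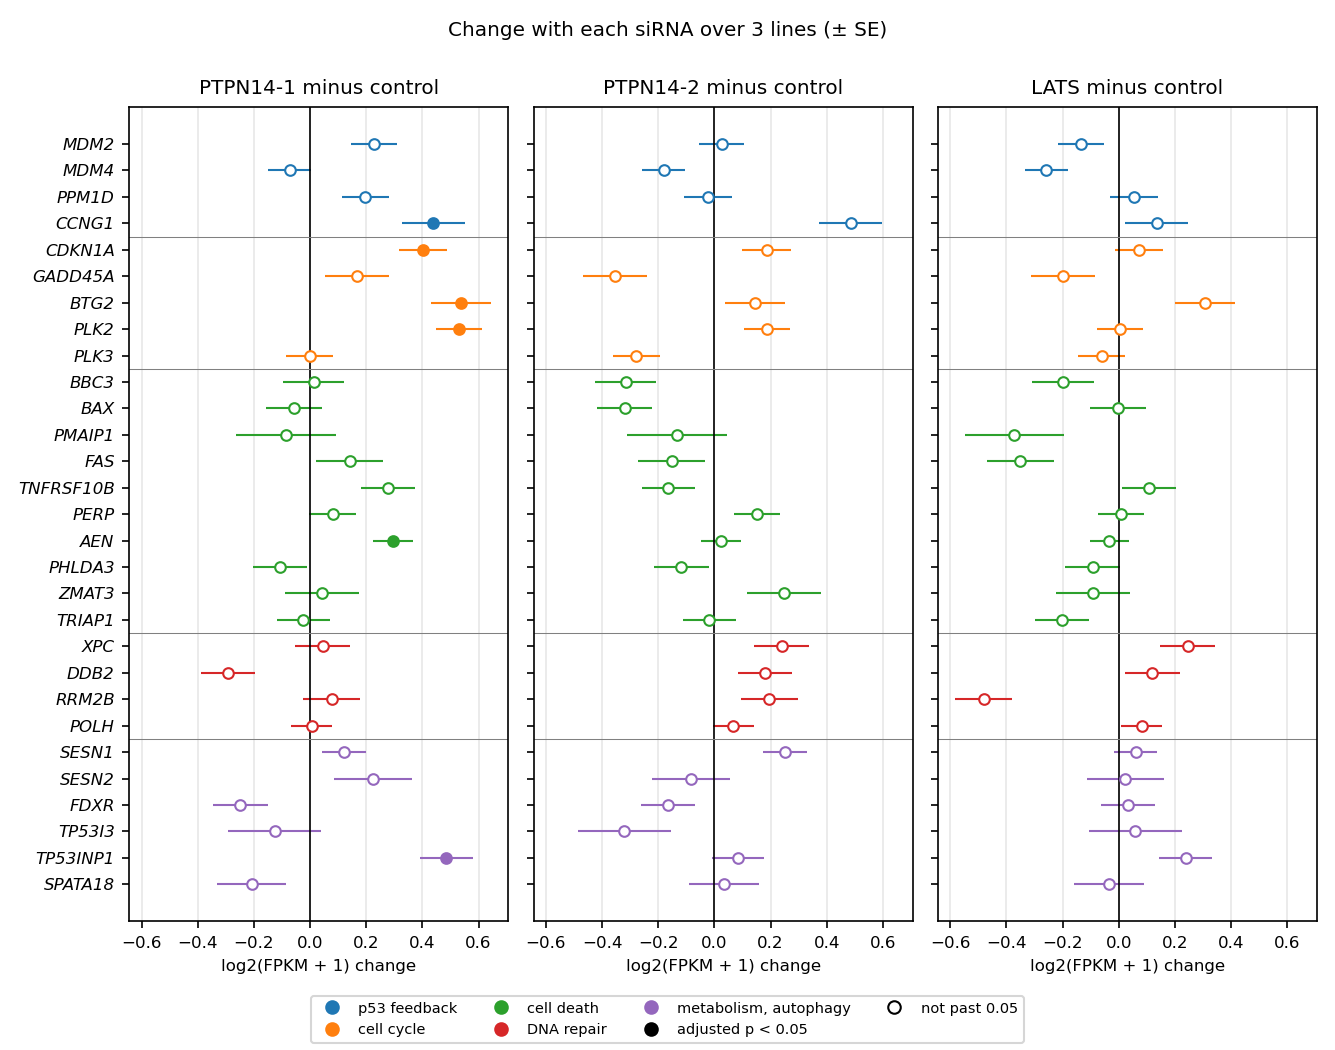
Change of each member over the 3 lines, as log2(FPKM + 1) with PTPN14-1, PTPN14-2 or LATS siRNA minus control, with bars for the standard error, filled where the limma adjusted p is under 0.05 and open otherwise. Filled points are seen in the PTPN14-1 panel, for 6 members, and in neither of the other panels; the PTPN14 siRNAs are compared directly in the text.

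PLK2 changed with the smallest adjusted p. In the order A704, CAKI-1, HK2 it had 253.5, 517 and 184 FPKM with PTPN14-1 and 202, 412 and 142 FPKM with PTPN14-2. With the LATS siRNA it had 171, 323 and 146 FPKM, and with control 170.2, 355 and 132 FPKM. The PTPN14-1 library was the highest of its line each time, and the change against control was 0.53 ± 0.08 (adjusted p = 0.00384). The call held in each of the 12 fits that left out 1 library, with an adjusted p of at most 0.0289.

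CDKN1A had 135, 40.3 and 28.6 FPKM with PTPN14-1 and 118, 35.3 and 23.5 FPKM with PTPN14-2 in A704, CAKI-1 and HK2. It had 105, 36.7 and 19.9 FPKM with LATS siRNA and 92.3, 31.9 and 22.3 FPKM with control. Both PTPN14 siRNAs lay above control in all lines, and the changes were 0.40 ± 0.09 with PTPN14-1 (adjusted p = 0.0185) and 0.19 ± 0.09 with PTPN14-2 (adjusted p = 0.337). CCNG1 had 116, 185 and 60.3 FPKM with PTPN14-1, 137, 218 and 48.0 FPKM with PTPN14-2 and 97.8, 143 and 48.96 FPKM with LATS siRNA, against 100.5, 133 and 38.6 FPKM with control. It was the one member whose estimate was at least as large with PTPN14-2 as with PTPN14-1 among the 6, at 0.49 ± 0.11 (adjusted p = 0.0582) against 0.44 ± 0.11 (adjusted p = 0.0405). With both PTPN14 siRNAs averaged, CCNG1 and PLK2 were the 2 members higher than control (0.46 ± 0.10 and 0.36 ± 0.07, adjusted p = 0.0440 and 0.0351), 0 were lower, and 0.611% of all genes were higher and 0.603% lower.

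BTG2 had 17.4, 8.85 and 3.39 FPKM with PTPN14-1, 14.8, 5.22 and 2.56 FPKM with PTPN14-2 and 15.7, 6.56 and 2.90 FPKM with LATS siRNA, against 14.9, 4.98 and 1.73 FPKM with control. The PTPN14-1 change was 0.54 ± 0.11 (adjusted p = 0.0128), and the percent of control was larger in CAKI-1 and HK2, at 178 and 196%, than in A704, at 117%. TP53INP1 had 8.98, 6.71 and 3.60 FPKM with PTPN14-1, 6.36, 5.05 and 2.45 FPKM with PTPN14-2 and 7.10, 6.76 and 2.37 FPKM with LATS siRNA, against 6.39, 4.90 and 1.96 FPKM with control. Its change with PTPN14-1 was 0.49 ± 0.09 (adjusted p = 0.0112), and in CAKI-1 the LATS library lay beside the PTPN14-1 one. AEN had 35.6, 33.8 and 15.8 FPKM with PTPN14-1, 29.4, 26.9 and 13.3 FPKM with PTPN14-2 and 28.7, 27.3 and 11.8 FPKM with LATS siRNA, against 28.1, 26.6 and 13.3 FPKM with control. The PTPN14-1 library was the highest of each line, with a change of 0.30 ± 0.07 (adjusted p = 0.0287).

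**Figure D4:**
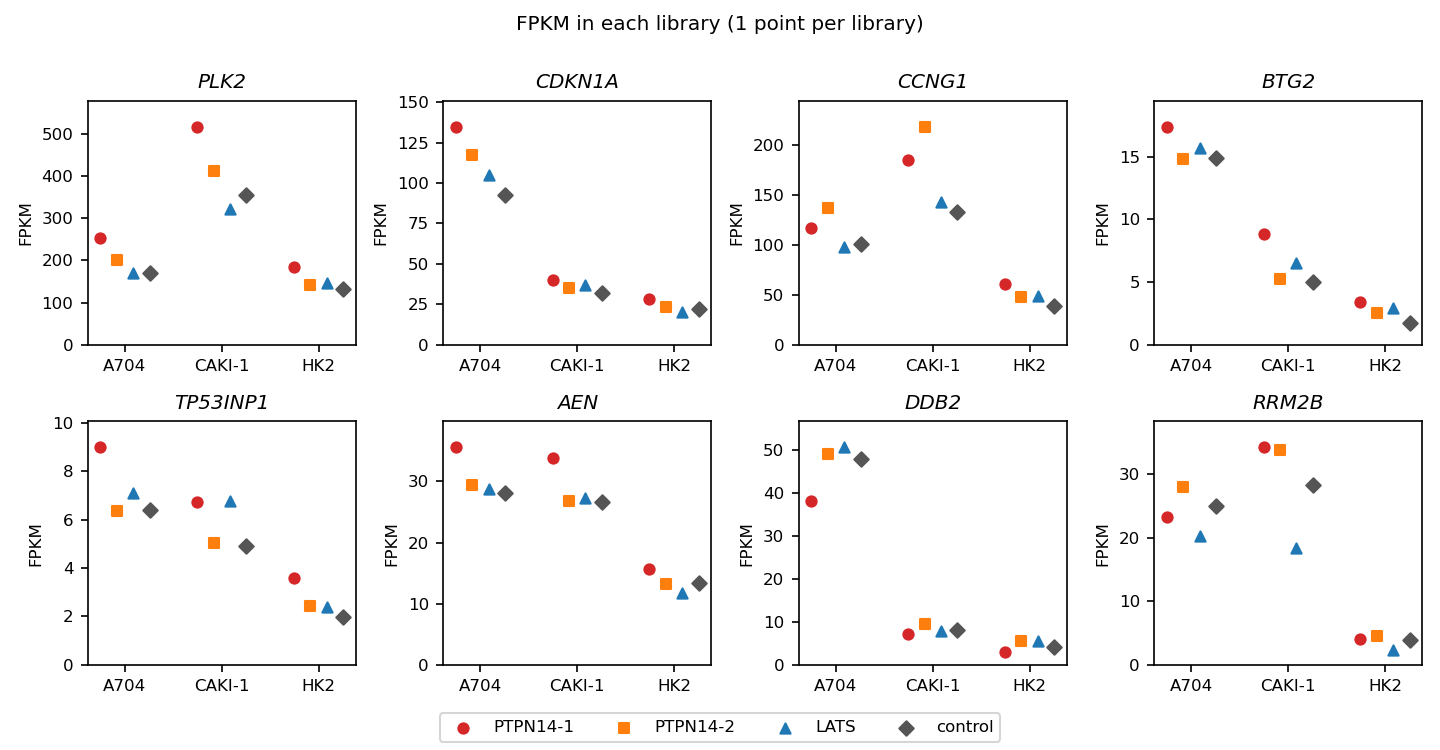
FPKM of 8 members in each of the 12 libraries, 1 point per library, by line (x axis) and siRNA (colour and shape). PLK2, CDKN1A, BTG2 and AEN are highest with PTPN14-1 in each line; DDB2 is lowest with PTPN14-1 in each line, and RRM2B lowest with LATS siRNA in each line.

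Apart from PLK2, each call was lost without 1 or more single libraries. Leaving out 1 library left 3 of the 29 members called without the A704 control, 1 without the HK2 PTPN14-1 library, 2 without the HK2 control and 1 without the CAKI-1 control, each against 6 with all libraries. CDKN1A did not pass without the A704 control, the HK2 PTPN14-1 or the CAKI-1 control library (largest adjusted p 0.0989), and TP53INP1 did not without the HK2 PTPN14-1, the HK2 control or the CAKI-1 control library (largest 0.0683). BTG2 did not pass without any 1 of the PTPN14-1 and control libraries of HK2 and CAKI-1 (largest 0.0827). AEN was lost without any 1 of the 3 PTPN14-1 or the 3 control libraries (largest 0.123) and CCNG1 without the same libraries apart from the A704 PTPN14-1 one, and also without the A704 PTPN14-2 or LATS library (largest 0.184). CCNG1 and PLK2 for both PTPN14 siRNAs averaged each passed in 4 of 12 such fits. With PTPN14-2, CCNG1 passed without the A704 PTPN14-1 library (adjusted p = 0.0433) or the HK2 PTPN14-2 library (0.0177). Without a whole line, the calls with PTPN14-1 numbered 2 without A704, 0 without CAKI-1 and 0 without HK2.

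The PTPN14 siRNAs were also compared with each other, which shares no control. With PTPN14-1 against PTPN14-2, 6 members were higher and 1 lower, against 5.52% higher and 6.18% lower over all genes, where 20.7% of the members were called higher and 3.45% lower. The 6 were GADD45A, TNFRSF10B, TP53INP1, PLK2, BTG2 and AEN. GADD45A had 46.5, 30.1 and 23.9 FPKM with PTPN14-1, against 28.9, 18.4 and 20.5 FPKM with PTPN14-2, in A704, CAKI-1 and HK2. The control libraries, at 39.1, 27.7 and 21.7 FPKM, lay between the PTPN14 siRNAs in each line. The difference was 0.52 ± 0.11 (adjusted p = 0.0117). TNFRSF10B had 103.5, 74.1 and 81.5 FPKM with PTPN14-1, against 72.2, 65.7 and 52.1 FPKM with PTPN14-2, with control again between them at 86.3, 72.2 and 56.0 FPKM. Its difference was 0.44 ± 0.10 (adjusted p = 0.0112). CCNG1 did not differ past the threshold (-0.05 ± 0.11, adjusted p = 0.826), nor did CDKN1A (0.22 ± 0.09, adjusted p = 0.124).

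DDB2 was the member that was lower with PTPN14-1. It had 38.2, 7.12 and 3.02 FPKM with PTPN14-1, against 48.98, 9.48 and 5.52 FPKM with PTPN14-2, and the control libraries had 47.97, 8.10 and 4.27 FPKM. The difference of -0.47 ± 0.10 (adjusted p = 0.00866) passed in each of the 12 fits that left out 1 library, with a largest adjusted p of 0.0486. The other calls between the PTPN14 siRNAs were each lost without 1 or more of the 6 PTPN14 libraries, at a largest adjusted p of 0.0587 (TNFRSF10B) to 0.154 (BTG2). The number of members called, 7 with all libraries, was 2 without the A704 PTPN14-2 library. It was 3 without the HK2 PTPN14-1 or the CAKI-1 PTPN14-1 library, 4 without the HK2 PTPN14-2 or the CAKI-1 PTPN14-2 library, and 0, 2 and 1 without the A704, CAKI-1 and HK2 line.

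In direction, 11 of 29 members were above control with PTPN14-1 in all 3 lines (37.9%) and 3 below in all 3, against 20.6% and 20.97% of all genes. The 3 below were PHLDA3, DDB2 and FDXR. With PTPN14-2, 9 members were above in all lines and 8 below, against 20.9% and 21.6% of all genes, and MDM4, GADD45A, PLK3, BBC3, BAX, TNFRSF10B, PHLDA3 and TP53I3 were the 8. BBC3, for example, had 4.99, 0.79 and 1.28 FPKM with PTPN14-2 in A704, CAKI-1 and HK2, against 6.68, 1.36 and 1.60 FPKM with control, a change of -0.32 ± 0.11 that did not pass (adjusted p = 0.193). BAX had 47.4, 27.7 and 29.97 FPKM, against 60.7, 35.3 and 36.3 FPKM with control (-0.32 ± 0.10, adjusted p = 0.145). MDM2 had a PTPN14-1 change of 0.23 ± 0.08 that did not pass (adjusted p = 0.120), with 105, 123.5 and 129% of control in A704, CAKI-1 and HK2.

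With the LATS siRNA the member nearest to the threshold was RRM2B, with a change of -0.48 ± 0.10 (adjusted p = 0.144). It had 20.2, 18.3 and 2.36 FPKM with LATS siRNA in A704, CAKI-1 and HK2, against 24.9, 28.3 and 3.91 FPKM with control, and was the lowest library of each line. MDM4 (-0.26 ± 0.08, adjusted p = 0.277) and FAS (-0.35 ± 0.12, adjusted p = 0.319) were also below control in all 3 lines, and BTG2 (0.31 ± 0.11, adjusted p = 0.327) was above in all 3. With LATS siRNA, 6 members were above and 7 below control in all lines, against 18.2% and 19.0% of all genes.

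Whether the PTPN14 change of a member differed between lines could not be decided with these libraries. In a limma model of the 9 line and target groups, 0 of 12276 genes were called for the line by PTPN14 interaction, 106 had an unadjusted p under 0.05, and 0 of these were members. That model has 3 residual degrees of freedom, all from the pairs of PTPN14 libraries within a line. Its error is therefore the difference between the PTPN14 siRNAs, which was itself called for members and other genes above. A difference between lines could be missed for that reason, and agreement between lines is not shown.

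Of the 24 tested regulators of p53, 1 was higher and 1 lower with PTPN14-1 than with control. The lower one, PRMT5, a methyltransferase that modifies p53, had 18.1, 18.7 and 35.9 FPKM with PTPN14-1 in A704, CAKI-1 and HK2, against 22.6, 28.0 and 54.0 FPKM with control (-0.48 ± 0.08, adjusted p = 0.00518). With PTPN14-2 its change was 0.11 ± 0.08 and did not pass (adjusted p = 0.563). The difference between the PTPN14 siRNAs was -0.58 ± 0.08 (adjusted p = 0.000643). Of the 54 other p53 targets, 5 were higher and 0 lower with PTPN14-1, namely EPHA2 (0.48 ± 0.08), TIGAR (0.43 ± 0.09), ABHD4 (0.50 ± 0.12), TRAF4 (0.29 ± 0.07) and CSF1 (0.62 ± 0.17), the last named to complete the count after its values were seen. Over all genes 2.39% were higher and 3.47% lower with PTPN14-1. Of the 54, 17 had an unadjusted limma p under 0.05, as did 22.8% of all genes. TIGAR, a fructose bisphosphatase that slows glycolysis, had 12.8, 15.9 and 13.5 FPKM with PTPN14-1, against 8.64, 10.3 and 11.7 FPKM with control. In the same list 0 genes passed with PTPN14-2 and 0 with LATS siRNA, where 10 and 9 of 54 had an unadjusted limma p under 0.05, near the shares of all genes given above. With PTPN14-1 against PTPN14-2, 8 were higher and 0 lower, where 5.52% of all genes were higher and 6.18% lower.

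Some values may hold reads of a neighbour. In GENCODE v29, exons of 10 of the 29 members overlap exons of a gene on the opposite strand, among them XPC with LSM3, FAS with ACTA2, TNFRSF10B with RHOBTB2, MDM2 with CPM and TP53I3 with FAM228B. The kit marks strand, but the strand setting of the counting is not given in the sources used here.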

How the data were processed

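Per the labels, polyA RNA of 12 libraries was prepared with a stranded kit. What the authors deposited is a single table of FPKM by gene symbol; that unit was inferred from its non-whole values. The submitters' processing notes name STAR 2.4.0g1 and GRCh38.p1, and no source used here names the counter, its annotation or its strand setting. Since FPKM are not counts, log2(FPKM + 1) was fitted with limma 3.58.1 in R 4.3.3 (trend and robust moderation, statmod 1.5.0). The terms were siRNA (4 levels) and cell line, leaving 6 residual degrees of freedom. The filter asked for FPKM above 1 in 3 or more libraries, and Benjamini-Hochberg adjustment ran over all genes kept, at 0.05. This scale understates changes of low genes. Libraries of 1 line are paired by the line itself, and their deviations from the siRNA means correlated at 0.958 to 0.983. The model was tested on simulated data. Depth came from the spacing of low FPKM values of single-exon genes and is approximate. Promoters are RefSeq's and gene overlaps GENCODE v29's. The members and gene lists were chosen with earlier results of these data known. All members are named, and of each other list up to 4 genes with the smallest p per contrast. CSF1 and FUCA1 were named outside that rule after their values were seen. Alternatives covered pseudocount, filter, scaling, moderation, the line term, siRNA levels, and each library or line left out. Results of 1 further gene are not reported here.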

Additional observations from a re-analysis of the deposited data

Results flagged for a closer look

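In 87 sets of 4 libraries, 1 for each member and line, 7 held a library that stood apart from the other 3 by Dixon's criterion, at which chance flags about 1 in 20 sets. PPM1D was highest with PTPN14-1 in A704, at 5.95 FPKM against 5.51 to 5.54 in the other libraries of the line, and in CAKI-1, at 7.37 FPKM against 5.62 to 5.67. AEN was highest with PTPN14-1 in A704, at 35.57 FPKM against 28.12 to 29.37, and in CAKI-1, at 33.76 FPKM against 26.58 to 27.25. SPATA18 was lowest with PTPN14-1 in A704, at 4.34 FPKM against 6.87 to 7.28. SESN1 was highest with PTPN14-2 in A704, at 10.75 FPKM against 9.86 to 9.88. BBC3 was lowest with PTPN14-2 in CAKI-1, at 0.79 FPKM against 1.36 to 1.43.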

How the results depend on the processing

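The counts of members called between lines stayed within 1.5 times under every alternative run (28 to 29 of 29 for A704 against HK2, 22 to 25 for CAKI-1 against HK2 and 23 to 25 for CAKI-1 against A704 when 1 library was left out), and the LATS count stayed at 0. The siRNA counts moved. For PTPN14-1 against control (6), the count was 1 to 6 without 1 library and 0 with no replicate block. It was 2, 0 and 0 without the A704, CAKI-1 and HK2 line. A fit of the PTPN14-1 and control libraries alone gave 1. For PTPN14-2 (0), the count was 0 to 1 without 1 library and 1 with FPKM above 1 in all 12 libraries. A fit of the PTPN14-2 and control libraries alone gave 2. For PTPN14-1 against PTPN14-2 (7), it was 2 to 8 without 1 library, 0 with no replicate block, and 0, 2 and 1 without the A704, CAKI-1 and HK2 line. For both PTPN14 siRNAs (2), it was 0 to 3 without 1 library, 0 without a filter, with quantile normalisation, with no replicate block, without each of the lines, and with the PTPN14 libraries pooled as 1 level, and 1 without trend or robust moderation. The fits with no replicate block leave the difference between lines in the residual, and those without a line have fewer samples; otherwise the cause was not tested. No called value changed sign. Scaling moved the median of all genes by less than 0.1 (log2). Depth limits the lowest members, BBC3 and SPATA18 in HK2 among them.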

Other observations

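Genes that p53 is known to lower through p21 and the DREAM complex, a repressor of cell cycle genes, were measured as a list of 26. In A704 against HK2, 3 were higher, 15 lower and 8 did not pass, and in CAKI-1 against HK2, 4 were higher, 18 lower and 4 did not pass (limma, Benjamini-Hochberg). Over all genes, 44% were lower in A704 and 41.3% lower in CAKI-1 than in HK2. MYBL2, a transcription factor of the cell cycle, had 24.01 to 29.86 FPKM in A704 and 37.4 to 52.95 FPKM in CAKI-1, against 128.8 to 176 FPKM in HK2. With PTPN14-1 against control 0 passed, and 6 of 26 had an unadjusted limma p under 0.05, a share like the 22.8% of all genes. With PTPN14-1 against PTPN14-2, 2 of the 26 were lower, MYBL2 (-0.40 ± 0.09) and HMMR (-0.52 ± 0.12). In that comparison 0 were higher and 24 did not pass, where 5.52% of all genes were higher and 6.18% lower. Cell division rates were not measured in these files.

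A list of 16 genes of the ATF4 stress response, which shares SESN2 and PMAIP1 as known targets with p53, was also measured. With PTPN14-1 against PTPN14-2, 6 of the 16 were higher, 0 lower and 10 did not pass, where 5.52% of all genes were higher and 6.18% lower. Among the 6 were ATF3 (0.59 ± 0.12), PPP1R15A (0.55 ± 0.09) and ATF4 (0.32 ± 0.08). Against control, DDIT3 (-0.56 ± 0.11) and DDIT4 (-0.47 ± 0.10) were lower with PTPN14-1 and PPP1R15A (-0.57 ± 0.09) was lower with PTPN14-2. The part of these genes in the difference between the PTPN14 siRNAs among p53 targets was not tested.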
